A study of Mus musculus with 8 samples.

Results

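The 10 genes described here encode plasma proteins of the acute phase response and of heme and iron binding. They are the serum amyloid A genes Saa1, Saa2 and Saa4, the pentraxins Crp and Apcs, the orosomucoids Orm1 and Orm2, the lipocalin Lcn2, haptoglobin (Hp) and hemopexin (Hpx). They were chosen by name, as the rows of the deposited expression table whose gene symbol equals a listed member. All 10 were found among the 21358 genes of the table, and all 10 passed the filter on low values that left 9867 genes for testing.

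The data are RNA sequencing of mouse liver, 8 libraries in all, in a study of how the liver responds to glucose given in the fasted or the fed state. The starvation glucose group (SG) holds libraries 101, 103, 104 and 105, and the feeding glucose group (FG) holds libraries 93, 94, 95 and 96. Both groups followed a regimen of fasting on alternate days for 22 weeks, and the series title places the animals in a model of metabolic dysfunction. Strain, sex, age, diet, glucose dose, batch and the time between feeding and collection are not in the labels, and no group without the regimen was analysed here. The study counts 4 per group without stating that each library is a different animal, and the p-values below therefore describe variation among libraries.

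In the acute phase response, interleukins released by macrophages during infection or injury act on hepatocytes, where STAT3, NF-kappaB and C/EBP factors raise the transcription of secreted defence proteins and lower that of others such as albumin. In the mouse, Saa1 and Saa2 are strongly inducible and Apcs is the main inducible pentraxin, whereas Crp responds weakly and Saa4 is regarded as largely constitutive. Haptoglobin captures free hemoglobin, hemopexin captures free heme, and lipocalin 2 binds the siderophores with which bacteria take up iron, so these proteins withhold iron as well as marking inflammation.

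The libraries held 36545128 to 39214619 counted fragments in SG and 38253764 to 41977438 in FG, a difference within the spread of the libraries (exact two-sided permutation test, p = 0.171). A level of about 1 FPKM (fragments per kilobase of gene, scaled to the library's counted total) corresponded to a median of 167 fragments. Hepatocyte markers were high in every library, with Alb, the albumin gene, at 35965 to 49861 FPKM in SG and 38212 to 45639 FPKM in FG. Of the 13 neutrophil markers, 11 stayed under 1 FPKM in all 8 libraries. The sum of all 13 was 2.04 to 2.34 FPKM in SG and 3.54 to 4.93 FPKM in FG. The sinusoidal endothelial sum was 81.1 to 88.9 FPKM in SG and 103 to 121 FPKM in FG, and the cholangiocyte sum was 13.04 to 19.1 FPKM in SG and 21.9 to 27.7 FPKM in FG, so these 3 sums did not overlap. The sums overlapped for macrophages (118 to 227 FPKM in SG and 125 to 197 FPKM in FG), stellate cells (62.7 to 84.8 and 62.1 to 109), lymphocytes (1.46 to 5.32 and 1.15 to 4.39), adipocytes (1.25 to 3.74 and 0.535 to 2.70) and erythroid cells (306 to 364 and 295 to 383). No marker of these lists was at 0 in all libraries. In bulk liver, fewer cells of a type and less RNA per cell cannot be told apart, and the part of these marker differences in the values of the 10 genes was not tested.

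The 10 genes ranged from the most abundant liver transcripts to a few FPKM. By mean FPKM over the 8 libraries, Hpx ranked 31st and Hp 36th of 21358 genes, followed by Orm1 at 91, Crp at 345, Saa4 at 544 and Apcs at 1310. Saa1 ranked 2118, Saa2 3849, Orm2 5221 and Lcn2 5465. Most neighbours in this order were separated in all 8 libraries, but Hpx exceeded Hp in 7 of 8, Apcs exceeded Saa1 in 7 of 8, Saa2 exceeded Orm2 in 7 of 8 and Orm2 exceeded Lcn2 in 6 of 8. Together the 10 genes took 0.841%, 0.605%, 0.533% and 0.660% of the counted fragments in SG 101, 103, 104 and 105, against 0.596%, 0.549%, 0.758% and 0.547% in FG 93, 94, 95 and 96. These shares overlapped between the groups, and the highest share of each group stood in SG 101 and FG 95.

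**Figure D1:**
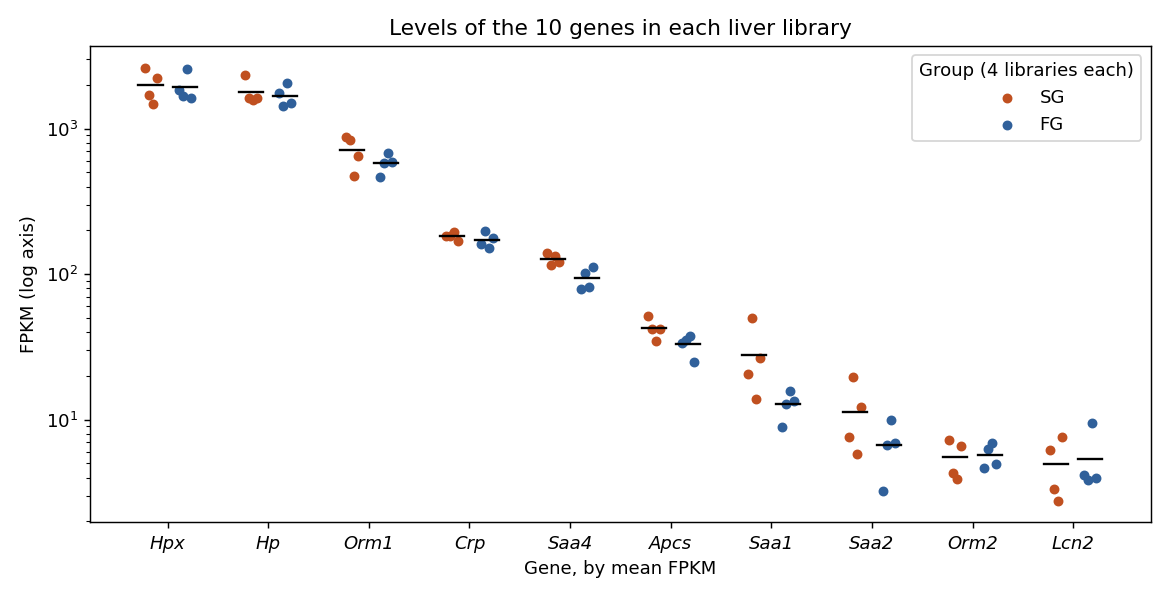
Level of each of the 10 genes in each liver library (log axis, FPKM), ordered by mean level, with the 4 SG libraries left of the 4 FG libraries and a bar at each group mean. The groups overlap for 9 of the 10 genes, and Saa4 alone has all 4 SG libraries (116 to 139 FPKM) above all 4 FG libraries (78.9 to 113 FPKM).

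Of the 10 genes, 1 was higher in SG livers and none was lower at an adjusted p below 0.05 (limma on log2(FPKM + 1), Benjamini-Hochberg over all 9867 tested genes). Of all tested genes, 19.4% were called, made up of 3.73% of all tested genes higher in SG and 15.6% lower. The 1 member called, higher in SG, is 10% of the 10. At an unadjusted p under 0.05 there were 3 members, Saa4, Saa1 and Apcs. The log2 difference, SG minus FG, was positive for 8 members and negative for 2, with a median of 0.18. The median over all tested genes was -0.14, and 30.1% of them had a positive difference. That shift depends on scaling: when libraries were rescaled by median ratios, the median of all genes was 0.01 and that of the members was 0.35, and 545 genes were called higher and 499 lower, against 368 higher and 1544 lower without rescaling. In 1 member the groups did not overlap, SG higher, against 26.1% of all tested genes in either direction, 4.35% with SG higher and 21.8% with SG lower.

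**Figure D2:**
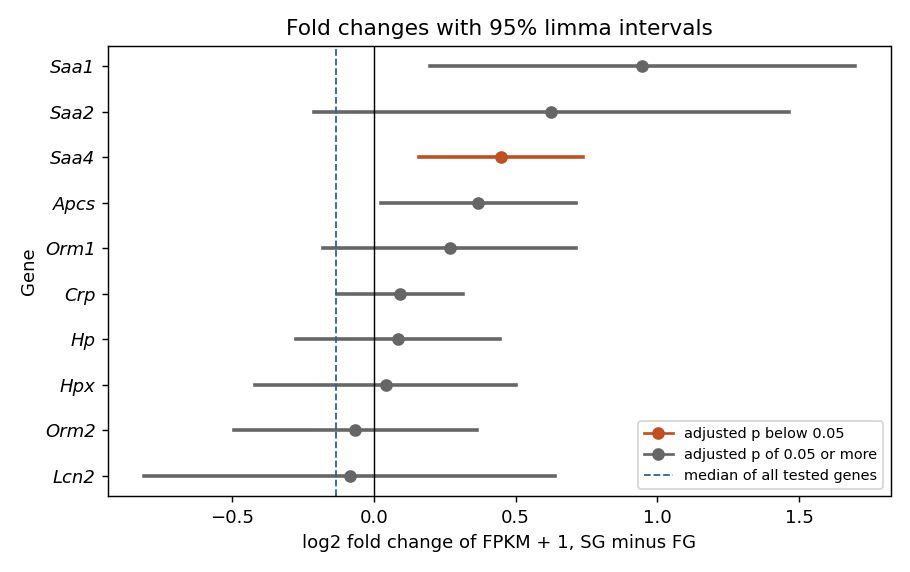
Difference in log2(FPKM + 1), SG minus FG, for each of the 10 genes, with the 95% interval from limma (n = 4 libraries per group), a solid line at no difference and a dashed line at the median of all 9867 tested genes (-0.14). Saa4, in colour, is the gene with an adjusted p below 0.05, and the intervals of Saa1 and Apcs also lie above 0.

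Serum amyloid A1 and A2 are apolipoproteins that ride on high-density lipoprotein during inflammation. Their genes lie side by side on chromosome 7 of GRCm38, Saa1 (NCBI gene 20208) at 46740497 to 46743181 and Saa2 (NCBI gene 20209) at 46751833 to 46754313. Their coding sequences are identical at 348 of 366 positions (95.1%). The first 150 coding bases from the reference transcripts are shown because the counts of the pair depend on telling such similar sequences apart. Capitals mark the 11 positions within these 150 bases at which the genes differ, of 18 mismatches over the coding sequence.
Saa1: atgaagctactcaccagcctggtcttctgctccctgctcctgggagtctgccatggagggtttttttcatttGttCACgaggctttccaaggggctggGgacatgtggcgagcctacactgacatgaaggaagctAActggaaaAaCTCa
Saa2: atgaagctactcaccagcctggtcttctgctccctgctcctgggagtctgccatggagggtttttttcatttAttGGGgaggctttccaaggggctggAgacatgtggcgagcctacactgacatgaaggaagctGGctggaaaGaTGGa
No stretch of 150 bases, the length of 1 read, in the Saa1 transcript was identical in the Saa2 transcript (0 of 460 windows). The treatment of reads matching both genes was not stated, and the split between them is uncertain. RefSeq lists each of the symbols Saa1 and Saa2 as a synonym of the other gene, so the values below follow the symbols of the deposited table, which could name the pair the other way round.

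Saa1 had the largest positive difference of the 10 genes, and it did not pass the test. It stood at 20.6, 50.05, 13.9 and 26.6 FPKM in SG 101, 103, 104 and 105, against 8.87, 12.9, 15.8 and 13.3 FPKM in FG 93, 94, 95 and 96. Only SG 104 fell within the FG range, and SG 103 was the highest library by a wide margin. The means were 27.8 ± 15.7 FPKM in SG and 12.7 ± 2.87 FPKM in FG (SD, n = 4 each), a log2 difference of 0.95 ± 0.33 (SE; 95% interval 0.20 to 1.70; limma adjusted p = 0.0740; exact permutation p = 0.0571). Without SG 104 the difference was 1.21 and Saa1 was called (limma adjusted p = 0.0399), and without SG 103 it was 0.62 (limma adjusted p = 0.118). Its depth was 349 to 1882 fragments per library.

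Saa2 ranked the libraries of each group in the same order as Saa1, at a lower level. It stood at 7.57, 19.8, 5.81 and 12.2 FPKM in SG 101, 103, 104 and 105, against 3.23, 6.74, 9.88 and 6.91 FPKM in FG 93, 94, 95 and 96. SG 103 was again the highest of the 8 libraries and FG 93 the lowest, and the groups overlapped. The log2 difference was 0.63 ± 0.37 (SE; 95% interval -0.21 to 1.46), which did not pass the test (limma adjusted p = 0.261). Saa1 exceeded Saa2 in every library, by 2.19 to 2.72 times in SG and 1.599 to 2.74 times in FG on the FPKM scale.

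Saa4 lies next to this pair (NCBI gene 20211, chromosome 7, 46727992 to 46732603) and encodes the serum amyloid A of resting plasma. It was the only one of the 10 called at an adjusted p below 0.05. It stood at 139, 116, 133 and 121 FPKM in SG 101, 103, 104 and 105, against 78.9, 102, 81.4 and 113 FPKM in FG 93, 94, 95 and 96. Every SG library lay above every FG library, the closest being SG 103 and FG 96. The means were 127 ± 10.7 FPKM in SG and 93.8 ± 16.3 FPKM in FG (SD, n = 4 each), a log2 difference of 0.45 ± 0.13 (SE; 95% interval 0.16 to 0.74; limma adjusted p = 0.0391). The exact permutation test gave p = 0.0286, the smallest that 4 libraries against 4 allow. The call sits close to the threshold: leaving out any 1 library except FG 96 ended it, with limma adjusted p-values of 0.107 without FG 93, 0.0509 without FG 94, 0.0924 without FG 95, 0.0637 without SG 101, 0.0589 without SG 103, 0.0957 without SG 104 and 0.0719 without SG 105. The difference remained positive in all of these fits, and under median-ratio scaling it was 0.62 (limma adjusted p = 0.0257).

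The pentraxins are ring-shaped proteins that bind phosphocholine and other exposed ligands on damaged cells and microbes. Apcs, serum amyloid P (NCBI gene 20219, chromosome 1, 172893961 to 172895054), stood at 51.9, 42.1, 34.9 and 41.6 FPKM in SG 101, 103, 104 and 105, against 33.8, 35.2, 37.5 and 24.9 FPKM in FG 93, 94, 95 and 96. Only SG 104 lay within the FG range. SG minus FG, the log2 difference was 0.37 ± 0.15 (SE; 95% interval 0.03 to 0.71), which did not pass the test (limma adjusted p = 0.117). It was 0.54 under median-ratio scaling (limma adjusted p = 0.0507) and 0.25 without FG 96 (limma adjusted p = 0.241). Apcs was called in 0 of the 21 alternatives.

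Crp, C-reactive protein (NCBI gene 12944, chromosome 1, 172698056 to 172699966), was the steadiest of the 10. It stood at 184, 183, 194 and 170 FPKM in SG 101, 103, 104 and 105, against 162, 198, 151 and 177 FPKM in FG 93, 94, 95 and 96. Both the highest and the lowest library belonged to FG, and the highest was 1.31 times the lowest. The log2 difference was 0.09 ± 0.10 (SE; 95% interval -0.13 to 0.31; limma adjusted p = 0.534). Without rescaling, a change of more than 1.24-fold upward lies outside that interval on the log2(FPKM + 1) scale. The bound depends on scaling. The difference was 0.27 under median-ratio scaling (limma adjusted p = 0.122) and 0.27 under trimmed-mean scaling (limma adjusted p = 0.124). Under quantile normalization it was 0.05 (limma adjusted p = 0.803). Crp and Apcs share 59.2% of aligned coding bases, and Crp exceeded Apcs by 3.55 to 5.54 times in SG and 4.04 to 7.10 times in FG.

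The orosomucoids, or alpha-1-acid glycoproteins, are plasma lipocalins that carry basic and lipophilic drugs. Orm1 (NCBI gene 18405, chromosome 4, 63344556 to 63348163) and Orm2 (NCBI gene 18406, chromosome 4, 63362449 to 63365877) are neighbours whose coding sequences are identical at 558 of 621 positions (89.9%). Their first 150 coding bases are given because the 2 genes are so unequal in level. Capitals mark the 13 positions within these 150 bases at which they differ, of 63 mismatches over the coding sequence.
Orm1: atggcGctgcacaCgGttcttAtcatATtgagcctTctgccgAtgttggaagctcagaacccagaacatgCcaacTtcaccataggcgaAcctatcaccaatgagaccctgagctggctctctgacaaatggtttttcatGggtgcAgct
Orm2: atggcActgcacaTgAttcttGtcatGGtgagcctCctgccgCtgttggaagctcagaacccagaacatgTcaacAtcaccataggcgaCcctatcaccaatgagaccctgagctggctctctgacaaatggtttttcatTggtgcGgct
Orm1 stood at 873, 836, 474 and 653 FPKM in SG 101, 103, 104 and 105, against 463, 581, 681 and 586 FPKM in FG 93, 94, 95 and 96. The SG libraries spread over most of the FG range and beyond it at the top. At 0.27 ± 0.20 (SE; 95% interval -0.18 to 0.71), its log2 difference did not pass the test (limma adjusted p = 0.367).

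Orm2 stood at 7.22, 4.29, 3.89 and 6.57 FPKM in SG 101, 103, 104 and 105, against 4.64, 6.28, 6.90 and 4.95 FPKM in FG 93, 94, 95 and 96. The FG values lay inside the SG range. The log2 difference of -0.07 ± 0.19 (SE; limma adjusted p = 0.831) turned to 0.08 under median-ratio, trimmed-mean and quantile scaling, so it has no settled direction. Orm1 exceeded Orm2 by 99.4 to 195 times in SG and 92.6 to 118 times in FG on the FPKM scale. No 150-base window of the Orm1 transcript was identical in Orm2 (0 of 626), and the split of shared reads is uncertain for this pair too. The related Orm3, which was not tested because of its low level, averaged 0.549 ± 0.382 FPKM in SG and 0.482 ± 0.220 FPKM in FG (SD, n = 4 each).

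Lipocalin 2 (Lcn2, NCBI gene 16819, chromosome 2, 32384637 to 32387739) is made by neutrophils as well as by hepatocytes. It stood at 6.16, 3.34, 2.78 and 7.60 FPKM in SG 101, 103, 104 and 105, against 4.14, 3.82, 9.44 and 3.95 FPKM in FG 93, 94, 95 and 96. In FG, 3 libraries lay close together and FG 95 stood far above them, while SG split into 2 higher and 2 lower libraries. The log2 difference was -0.09 ± 0.32 (SE; 95% interval -0.81 to 0.64; limma adjusted p = 0.871), and it was 0.06 under median-ratio scaling and 0.18 without FG 95. The neutrophil marker sum was 3.54 FPKM in FG 95, the lowest of the FG libraries, and its part in the Lcn2 values was not tested. Lcn2 rested on 89 to 338 fragments per library, the fewest of the 10 genes.

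Haptoglobin (Hp, NCBI gene 15439, chromosome 8, 109575128 to 109579172) binds hemoglobin for uptake by the macrophage receptor CD163. It stood at 2327, 1630, 1575 and 1616 FPKM in SG 101, 103, 104 and 105, against 1744, 1428, 2051 and 1489 FPKM in FG 93, 94, 95 and 96. The other SG libraries were nearly equal and lay inside the FG range, with SG 101 far above them. The log2 difference was 0.09 ± 0.16 (SE; 95% interval -0.27 to 0.45; limma adjusted p = 0.732), and without SG 101 it was -0.05.

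Hemopexin (Hpx, NCBI gene 15458, chromosome 7, 105591611 to 105600116) carries heme to the receptor LRP1. It stood at 2628, 1708, 1466 and 2211 FPKM in SG 101, 103, 104 and 105, against 1855, 1680, 2551 and 1626 FPKM in FG 93, 94, 95 and 96. As for Hp, SG 101 and FG 95 were the highest of their groups. The log2 difference was 0.04 ± 0.20 (SE; 95% interval -0.42 to 0.50; limma adjusted p = 0.90), turning to -0.10 without SG 101 and to -0.05 under quantile normalization. The ratio of Hpx to Hp was 0.931 to 1.37 in SG and 1.06 to 1.24 in FG. The macrophage marker sum was also highest in these libraries, at 227 FPKM in SG 101 against 118 to 140 FPKM in the other SG libraries, and at 197 FPKM in FG 95 against 125 to 165 FPKM in the other FG libraries. Its part in the Hp and Hpx values was not tested. The erythroid sum was 364 FPKM in SG 101, the highest of SG, and 295 FPKM in FG 95, the lowest of FG.

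Within the groups the 10 genes did not vary as 1 block. Deviations of log2(FPKM + 1) from the group mean were correlated over the 8 libraries for all 45 pairs, with exact permutation p-values from the 576 rearrangements of libraries within groups; all pairs share the libraries, and none of the 45 passed the Benjamini-Hochberg adjustment, while 5 had an unadjusted p under 0.05. The smallest p that the rearrangements can give is 0.0017, which for a single pair among 45 adjusts to 0.0781, so 1 pair alone could not pass. The closest pair was Saa1 and Saa2 (Pearson r = 0.95, exact permutation p = 0.0017, adjusted p = 0.0781; Spearman rho = 0.95, exact permutation p = 0.0035, adjusted p = 0.156), with r = 0.996 after leaving out SG 103 and SG 104, the libraries farthest from the median for Saa1.

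Lcn2 and Hpx had r = 0.92 (exact permutation p = 0.0243, adjusted p = 0.303; rho = 0.86, exact permutation p = 0.0382, adjusted p = 0.417), and r = 0.99 without SG 105 and FG 95. Hp and Hpx had r = 0.85 (exact permutation p = 0.0069, adjusted p = 0.156; rho = 0.76, exact permutation p = 0.0486, adjusted p = 0.417). Without SG 101 and FG 95 the r of Hp and Hpx was 0.37, so that relation rests on those libraries. Saa4 and Crp, the 2 members with the smallest spread, had r = 0.70 with each other (exact permutation p = 0.167, adjusted p = 0.447) and mostly negative r with the rest.

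**Figure D3:**
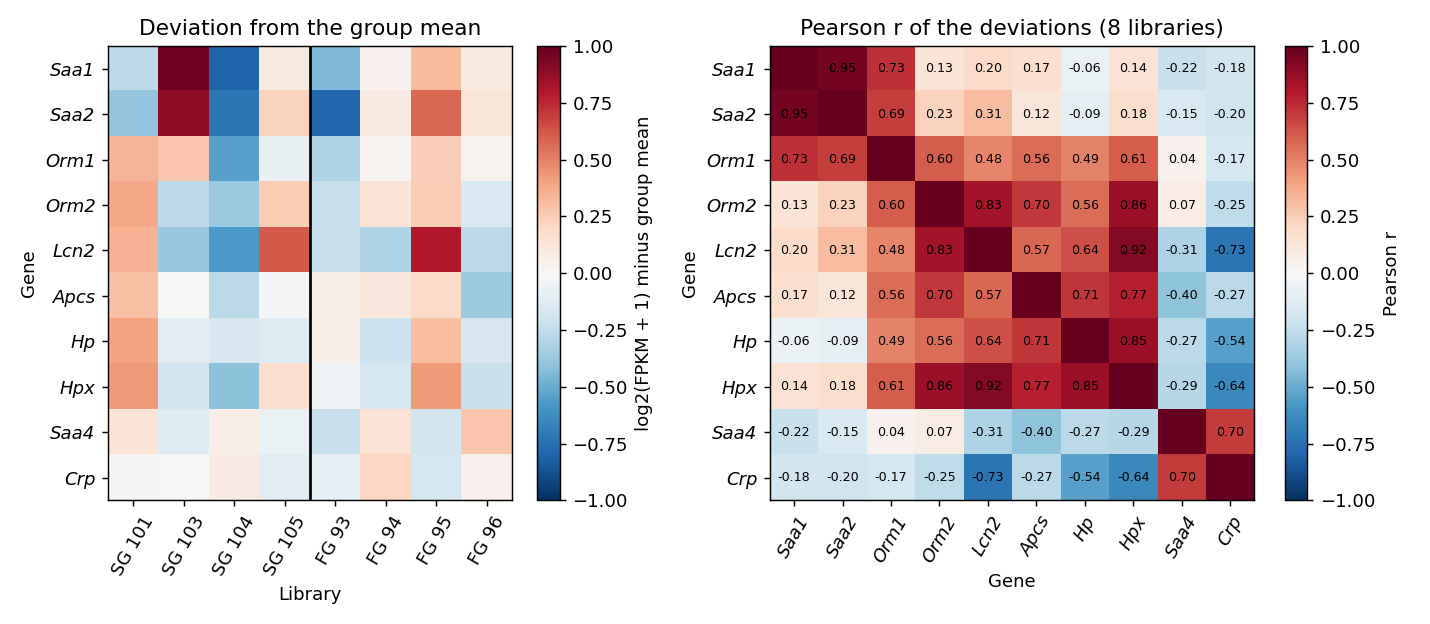
Left, deviation of each gene in each library from its group mean on the log2(FPKM + 1) scale, SG libraries left of FG libraries. Right, Pearson r of these deviations between genes over the 8 libraries: Saa1 and Saa2 form the closest pair (0.95), Hpx goes with Lcn2 (0.92), Orm2 (0.86) and Hp (0.85), and Crp goes against Lcn2 (-0.73). None of the 45 pairs passed the Benjamini-Hochberg adjustment, and without SG 101 and FG 95 the r of Hp and Hpx was 0.37.

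Among the 9857 tested genes outside the 10, those whose deviations were most like Saa1 over the 8 libraries were Pdcd2 (r = 0.99), Acat3 (0.95), Samhd1 (0.93), AI463170 (0.93) and Hspb11 (0.92). For Saa2 they were Hspb11 (0.96), Pdcd2 (0.95), Samhd1 (0.93), Iyd (0.91) and AI463170 (0.90). For Lcn2 they included Mpv17l2 (0.98), Zfp764 (0.97), Rplp1 (0.96) and Slc44a3 (0.95). These are the highest of 9857 values from 8 libraries and describe likeness only.

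Promoter sequence is shown for 4 of the members that carry a match to the C/EBP-type motif, since C/EBP factors act on many acute phase genes. RefSeq (GRCm38.p6) promoters were at hand for 8 of the 10 genes, Orm1 and Hp having no entry in the table used. The letters TTGCNNAA, searched on both strands of the 300-base window from 250 bases before to 50 after the start, were found in 6 of 8 (Saa1, Saa2, Saa4, Orm2, Lcn2 and Hpx) and in 10.8% of all 32841 windows. The 250 bases before the start, 5′ to 3′ on the gene's strand, follow for the serum amyloid A genes and Orm2, with matches in capitals.
Saa1, minus strand, chr7:46742981-46743230: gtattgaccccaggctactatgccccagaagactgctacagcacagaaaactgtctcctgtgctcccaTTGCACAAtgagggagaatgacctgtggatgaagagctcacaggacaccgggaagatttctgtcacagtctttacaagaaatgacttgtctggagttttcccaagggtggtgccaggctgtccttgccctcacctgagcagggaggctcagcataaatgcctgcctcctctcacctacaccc
Saa2, plus strand, chr7:46751583-46751832: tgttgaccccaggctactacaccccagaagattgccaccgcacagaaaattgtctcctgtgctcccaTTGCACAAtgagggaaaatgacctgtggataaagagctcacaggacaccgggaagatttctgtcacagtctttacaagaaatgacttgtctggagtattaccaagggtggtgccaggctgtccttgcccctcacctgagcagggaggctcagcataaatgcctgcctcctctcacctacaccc
Saa4, minus strand, chr7:46732604-46732853: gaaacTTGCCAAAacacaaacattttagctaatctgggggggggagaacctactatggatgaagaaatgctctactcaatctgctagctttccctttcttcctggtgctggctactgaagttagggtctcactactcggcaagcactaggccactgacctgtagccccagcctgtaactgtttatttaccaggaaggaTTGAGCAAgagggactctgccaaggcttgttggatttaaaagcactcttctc
Orm2, plus strand, chr4:63362199-63362448: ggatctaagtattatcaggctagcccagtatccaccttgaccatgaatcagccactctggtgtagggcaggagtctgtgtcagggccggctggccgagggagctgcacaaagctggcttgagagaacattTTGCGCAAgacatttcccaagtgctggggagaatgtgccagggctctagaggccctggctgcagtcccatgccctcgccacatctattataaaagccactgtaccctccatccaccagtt
The Saa1 window lies partly within the annotated span of that gene. Saa1 and Saa2 share 238 of 249 aligned promoter positions (95.6%) and carry the same letters TTGCACAA at nearly the same distance, positions -182 to -175 from the start in Saa1 and -183 to -176 in Saa2. Saa4 has 2 matches, at positions -245 to -238 and -52 to -45, and its promoter matches that of Saa1 at 54.3% of aligned positions. The Orm2 match TTGCGCAA, positions -120 to -113, reads the same on both strands.

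The STAT3-type letters TTCNNNGAA were found only in Apcs among the 8 member windows, as TTCTAGGAA at positions -244 to -236, against 8.3% of all windows. The kappaB consensus was found in 0 of 8 windows, against 4.51% of all windows. A match is a string of letters and not a measured site, and none was read for binding.

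Of 29 genes listed for the signalling that controls acute phase genes, 27 were tested. In SG 1 was called higher and 6 lower, with a median log2 difference of -0.09. The call rates over all tested genes, 3.73% higher and 15.6% lower, are the background for these counts. Creb3l3, a liver transcription factor that activates Crp and Apcs in the mouse, was 155 ± 13.2 FPKM in SG and 121 ± 9.78 FPKM in FG (SD, n = 4 each; log2 difference 0.36, limma adjusted p = 0.0305); without FG 93, FG 95, SG 103 or SG 104 it was not called, at adjusted p-values of up to 0.0865.

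The genes called lower were Tnfrsf1a, Cebpa, Irak4, Irak1, Rela and Ptpn11. Tnfrsf1a, a tumour necrosis factor receptor, averaged 28.0 ± 4.27 FPKM in SG and 42.3 ± 3.37 FPKM in FG (log2 difference -0.58, limma adjusted p = 0.0116). Cebpa, a hepatocyte C/EBP factor, averaged 89.0 ± 8.18 and 129 ± 13.2 FPKM (-0.53, limma adjusted p = 0.0120). The kinase gene Irak4 averaged 2.63 ± 0.363 and 4.08 ± 0.304 FPKM (-0.49, limma adjusted p = 0.0152). The log2 differences of Irak1, Rela and Ptpn11 were -0.44, -0.36 and -0.36. All 6 calls were lost under median-ratio and trimmed-mean scaling, where 2 genes of the list were higher and 0 lower under median ratios. Irak1 also lost its call in the fits that omitted FG 93, FG 95, SG 103, SG 104 or SG 105 (adjusted p up to 0.0739), Rela whichever library but SG 101 was left out (up to 0.122) and Ptpn11 whichever library but FG 94 was left out (up to 0.106).

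The other regulators followed did not pass the test. Il6ra, the interleukin-6 receptor chain, averaged 23.2 ± 3.11 FPKM in SG and 13.2 ± 6.84 FPKM in FG (log2 difference 0.87, limma adjusted p = 0.0554), with FG 96 at 23.1 FPKM inside the SG range, and it was called without FG 96 (adjusted p = 0.00940). Stat3 averaged 24.3 ± 1.22 FPKM in SG and 20.9 ± 1.09 FPKM in FG (0.21, adjusted p = 0.0914), and it was called under median-ratio, trimmed-mean and quantile scaling. Socs3, a feedback inhibitor induced by STAT3, averaged 1.45 ± 0.208 FPKM in SG and 2.49 ± 1.88 FPKM in FG (-0.39, adjusted p = 0.355). Its FG mean was raised by FG 93 at 5.30 FPKM. The other FG libraries stood at 1.36 to 1.78 FPKM, against 1.27 to 1.75 FPKM in SG. The log2 differences of Il6st, Cebpb, Cebpd and Nr3c1 lay between -0.09 and 0.17, with adjusted p-values of 0.540 to 0.885.

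Of 23 other positive acute phase genes, 20 were tested, with a median log2 difference of 0.02. In SG 4 were called higher and 3 lower (3.73% and 15.6% of all tested genes were). Itih3, a hyaluronan-binding plasma protein, stood at 256, 289, 261 and 355 FPKM in SG 101, 103, 104 and 105, against 140, 164, 150 and 166 FPKM in FG 93, 94, 95 and 96. The groups were far apart, with a log2 difference of 0.89 ± 0.12 (SE; limma adjusted p = 0.00287) and a call in all 21 alternatives. Fgl1, a fibrinogen-like hepatokine, averaged 130 ± 36.4 FPKM in SG and 59.6 ± 14.7 FPKM in FG (SD, n = 4 each; log2 difference 1.09, limma adjusted p = 0.0153) and was likewise called in all 21.

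The metallothioneins Mt1 and Mt2, which bind zinc, also rose (log2 differences 2.19 and 2.47, limma adjusted p = 0.0432 and 0.0482), but their groups overlapped, and 6 of the 8 fits with 1 library left out did not call either of them, namely those that omitted FG 93, FG 94, FG 96, SG 101, SG 104 or SG 105 (adjusted p up to 0.113 and 0.125). SG 105 stood far above the other SG libraries, at 270.0 FPKM against 28.7 to 56.3 FPKM for Mt1 and 313 FPKM against 23.5 to 59.9 FPKM for Mt2, and without it the log2 differences were 1.54 and 1.74. Both calls were also lost with no filter, under median-ratio, trimmed-mean and quantile scaling, with robust empirical Bayes and with voom. The genes called lower were Cp, Mbl2 and Steap4. Cp, the copper oxidase ceruloplasmin, averaged 146 ± 13.7 FPKM in SG and 194 ± 5.20 FPKM in FG (-0.41, limma adjusted p = 0.0150). The mannose-binding lectin Mbl2 differed by -0.77 (limma adjusted p = 0.0202) and the metalloreductase Steap4 by -0.77 (limma adjusted p = 0.0242). All 3 calls were lost under median-ratio and trimmed-mean scaling; Mbl2 was also not called when FG 93 or SG 103 was left out (adjusted p up to 0.0536), nor Steap4 when SG 104 or SG 105 was (up to 0.0635). Under median-ratio scaling 3 genes of this list were higher and 0 lower. Saa3, the remaining inducible serum amyloid A, averaged 6.47 ± 1.73 FPKM in SG and 6.24 ± 1.61 FPKM in FG (0.04, adjusted p = 0.913). Serpina3n, an inducible protease inhibitor, averaged 180 ± 14.4 FPKM in SG and 161 ± 22.5 FPKM in FG (0.17, adjusted p = 0.319).

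The 12 negative acute phase genes, whose plasma proteins decline in inflammation, were all tested, with a median log2 difference of 0.03. In SG 2 were called higher and 2 lower (3.73% and 15.6% of all tested genes were). Serpina7, the thyroxine-binding globulin, stood at 3.30, 6.07, 9.89 and 1.58 FPKM in SG 101, 103, 104 and 105, against 68.8, 49.3, 16.4 and 25.7 FPKM in FG 93, 94, 95 and 96. It was the strongest change of the list, with a log2 difference of -2.72 ± 0.52 (SE; limma adjusted p = 0.0104), called in all 21 alternatives. Serpina6, the corticosteroid-binding globulin, averaged 159 ± 31.4 FPKM in SG and 251 ± 49.9 FPKM in FG (-0.65, limma adjusted p = 0.0378), and lost its call under median-ratio and trimmed-mean scaling and whichever library but FG 96 or SG 101 was left out (adjusted p up to 0.105). Apoa1, the main high-density lipoprotein protein, averaged 8516 ± 695 FPKM in SG and 6319 ± 971 FPKM in FG (0.44, limma adjusted p = 0.0447), and lost its call whichever of the 8 libraries was left out (adjusted p up to 0.102). Igf1, the growth factor that growth hormone induces in liver, averaged 72.4 ± 17.2 FPKM in SG and 38.8 ± 13.8 FPKM in FG (0.91, limma adjusted p = 0.0355), and lost its call whichever library but FG 94 or SG 101 was left out (adjusted p up to 0.0935). The Igf1 groups overlapped, with SG 101 at 48.7 FPKM and FG 94 at 58.2 FPKM. Its call was also lost with no filter on low values and under quantile normalization. Under median-ratio scaling 4 genes of this list were higher and 1 lower.

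Of 18 partners in heme, hemoglobin and siderophore handling, 15 were tested, with a median log2 difference of -0.02. In SG 1 was called higher and 2 lower (3.73% and 15.6% of all tested genes were). Blvrb, a biliverdin reductase, stood at 93.2, 98.6, 109 and 58.6 FPKM in SG 101, 103, 104 and 105, against 205, 144, 218 and 149 FPKM in FG 93, 94, 95 and 96. No SG library reached the FG range, and the log2 difference was -0.999 ± 0.21 (SE; limma adjusted p = 0.0151), called in all 21 alternatives. Ftl1, the ferritin light chain that stores iron, averaged 1864 ± 232 FPKM in SG and 3187 ± 807 FPKM in FG (-0.75, limma adjusted p = 0.0223), and lost its call under median-ratio and trimmed-mean scaling and in the fits that omitted FG 93, SG 103, SG 104 or SG 105 (adjusted p up to 0.0675 in those fits). Tfr2, a sensor of iron-loaded transferrin, averaged 102 ± 2.75 FPKM in SG and 83.2 ± 3.18 FPKM in FG (0.28, limma adjusted p = 0.0255), and lost its call in the fits that omitted FG 93, FG 94, FG 95, SG 103 or SG 104 (adjusted p up to 0.0779). Hmox1, the inducible heme oxygenase, averaged 13.4 ± 2.46 FPKM in SG and 13.8 ± 1.94 FPKM in FG (-0.04, adjusted p = 0.854), and Cd163, the haptoglobin-hemoglobin receptor, averaged 6.15 ± 1.32 FPKM in SG and 6.10 ± 0.268 FPKM in FG (-0.01, adjusted p = 0.971).

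**Figure D4:**
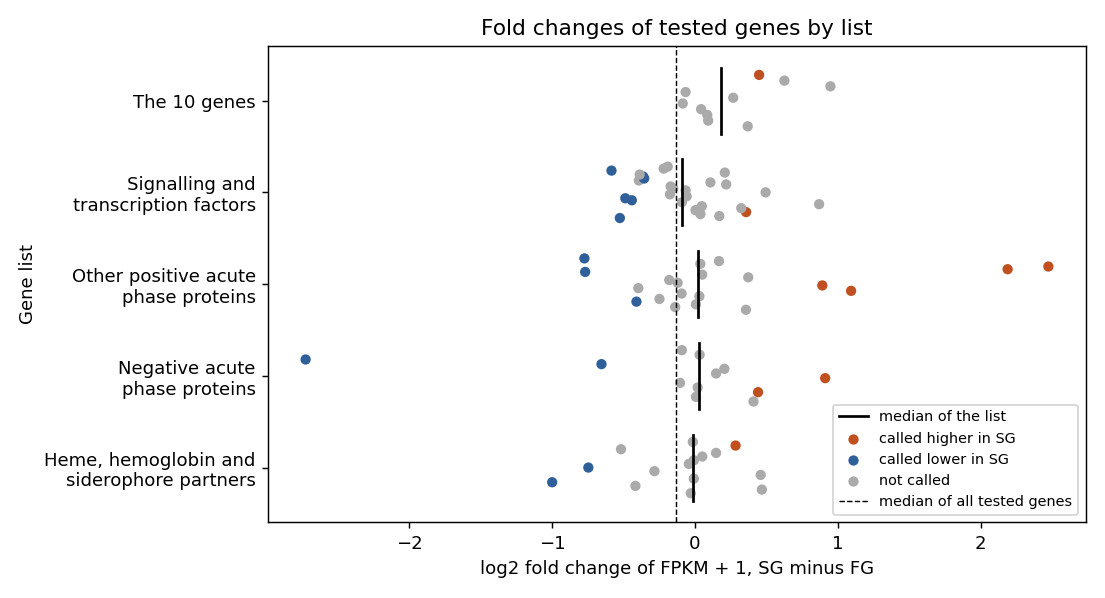
Difference in log2(FPKM + 1), SG minus FG, for every tested gene of the 10 genes and of the 4 pathway lists, with a bar at each list's median and a dashed line at the median of all 9867 tested genes (-0.14). Most tested genes of every list were not called, and the list medians run between -0.09 and 0.18.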

How the data were processed

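Total RNA was isolated with TRIzol and the enriched mRNA was sequenced from both ends (150 bp reads, Illumina NovaSeq), per the labels' protocols. Tools named per the submitters' processing notes are HISAT2, HTSeq, fastp and DESeq2, and the builds named there are mm10 and GRCm38, with no roles or versions. The deposited values are FPKM, made by the authors for 21358 genes, 1 column per library; a strand setting for the counting was not stated, so overlapping and antisense genes cannot be told apart. All columns were matched to samples by label. Whole fragments could be recovered from the FPKM steps for 100% of genes (tolerance 0.02 fragments), which gave the depths.

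The FPKM were analysed as log2(FPKM + 1), with limma 3.58.1 in R 4.3.3 and a mean-variance trend, over genes of at least 1 FPKM in at least 4 of 8 libraries, with Benjamini-Hochberg adjustment over all of them and a threshold of 0.05. Fold changes on this scale understate those of low genes. Single genes were also tested by exact permutation, two-sided, with 70 possible assignments of libraries. The fitting was tested on simulated data. Promoters came from RefSeq (GRCm38.p6) and coding sequences from GENCODE on GRCm38; gene coordinates are those of RefSeq. Named genes were the 10 members, up to 6 called genes of each pathway list with the smallest p, a fixed set of regulators and related proteins, the genes most alike to the 3 members with the largest spread within groups, and the highest gene of each marker list, of which only Alb is printed; some results under this rule are not reported here. The members and lists were chosen with earlier results of these data known. Correlations were planned without p-values; the permutation p-values and the fit without FG 95 and SG 101 were added after seeing the data. Alternatives covered the pseudocount, filters, 5 scalings, the variance model, library weights, voom on recovered counts, thresholds and leaving out each library.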

Additional observations from a re-analysis of the deposited data

Results flagged for a closer look

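Dixon's test at the 95% level was applied to the 10 genes in each group, 20 groups of 4 libraries, of which chance alone marks about 1 in 20. It marked 2. Lcn2 in FG 95 was 9.44 FPKM, with the other FG libraries at 3.82 to 4.14 FPKM. Hp in SG 101 was 2327 FPKM, with the other SG libraries at 1575 to 1630 FPKM.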

How the results depend on the processing

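The 21 alternatives kept the positive sign of Saa1, Saa2, Saa4, Crp, Apcs and Orm1. No paired analysis was possible because the groups share no replicate numbers. The count of members called, 1 as reported, was 0 with no filter on low values, under quantile normalization, with library weights, without FG 95 and SG 101 together and at an adjusted p below 0.01; it was 2 below 0.1, and 0 to 1 with 1 library left out. Without SG 104 the called member was Saa1, not Saa4. In those fits the adjusted p of Saa4 was 0.0874 with no filter, 0.0612 with quantile normalization, 0.0521 with library weights and 0.117 without FG 95 and SG 101 together. Over all genes, 1912 were called as reported (368 higher and 1544 lower in SG, 80.8% lower), 1133 with no filter, 1044 with median-ratio scaling (545 higher and 499 lower, 47.8% lower), 1042 with trimmed-mean scaling (48.2% lower), 1078 with quantile normalization (57.1% lower), 415 below 0.01, 2922 below 0.1, and 834 to 2363 with 1 library left out (834 without FG 93, 1102 without FG 95, 1087 without SG 103, 1036 without SG 104 or SG 105). The cause was not tested. The log2 differences turned sign for Orm2 (0.0828 under median-ratio, 0.0818 under trimmed-mean and 0.0790 under quantile scaling; -0.191 to 0.0583 with 1 library left out), Lcn2 (0.0597 under median-ratio, 0.0587 under trimmed-mean and 0.0687 under quantile scaling, 0.0672 without FG 95 and SG 101 together; -0.289 to 0.182 with 1 library left out), Hpx (-0.0539 under quantile normalization and -0.0591 with library weights; -0.1001 to 0.185 with 1 library left out) and Hp (-0.0476 without SG 101, the lowest, to 0.187 without FG 95, the highest, with 1 library left out), none of which was called in any fit. Lcn2, Orm2 and Saa2 had the lowest depth of the 10 genes, down to 89, 154 and 102 fragments in a library. The part of depth in their spread was not tested, and 4 libraries a group limit every p.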
